A study of Mus musculus with 2 samples.

Results

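Primitive streak and mesoderm regulators were followed as a set of 8 genes among the 22556 of the count table. They are T, Mixl1, Mesp1, Gsc, Tbx6, Evx1, Wnt3 and Kdr. They were chosen by name for their roles in the embryo. The rule uses no measured value, but it was set with earlier results of these data known. The study sequenced polyadenylated RNA of iXist-ChrX-Dom cells, a female (XX) mouse embryonic stem cell (mESC) line from a cross of Dom/129S and Cast mice that was isolated as a clone. The Xist promoter on the Dom/129S allele is replaced with a TetOn promoter in this line, and the cells were untreated, with 0 h of doxycycline, so both libraries carry the modified allele without its induction. The cells were cultured in serum and LIF, and fibroblast feeders were taken away by pre-plating. There is 1 group of 2 replicates, which allows no comparison between conditions. The cell type label names the whole path from mESC to neural precursor, whereas the titles place both libraries at the ES stage. All 15 ES cell markers of the list used here were at or above 1 TPM (transcripts per 1000000, a count scaled by gene length and by library), with lengths taken over the whole span, introns included, and 14 were with exonic length.

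The primitive streak is the site where epiblast cells of the gastrulating embryo lose their epithelial form and become mesoderm and endoderm. Wnt, Nodal and BMP signals induce it, and the factors T, Mixl1, Gsc and Evx1 mark its cells, each over its own part of the streak. Mesp1 and Tbx6 follow in cardiac and presomitic mesoderm, and Kdr marks the mesoderm that gives rise to blood and vessels. ES cells correspond to the epiblast before this step, and cultures in serum are known to be heterogeneous for some of these genes.

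The regions where transcription of these genes starts are shown for T, the member with the most counts, and for the members without any count, so that the letters upstream of a gene with transcripts can be read beside those of genes without. Each window runs from 250 bases before to 50 bases after the RefSeq start (GRCm38.p6, 5′ to 3′ on the strand of the gene). Windows were found for 7 members, and Mixl1 had none. Capitals mark the TCF words (CTTTGAA or CTTTGAT or CTTTGTT or CTTTGTA, the core bound by the Wnt effectors TCF and LEF), the T-box word AGGTGTGA and the word TATAAA, each searched on both strands, and no 2 marked words overlap. The T window lies at chr17:8434173-8434472, plus strand.
T: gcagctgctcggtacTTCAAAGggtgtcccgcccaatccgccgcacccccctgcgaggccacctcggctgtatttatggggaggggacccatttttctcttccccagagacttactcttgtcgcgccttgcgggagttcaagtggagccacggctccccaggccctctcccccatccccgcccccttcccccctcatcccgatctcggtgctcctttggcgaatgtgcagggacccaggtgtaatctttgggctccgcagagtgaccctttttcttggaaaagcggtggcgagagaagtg
The windows of Mesp1 (chr7:79793541-79793840, minus strand), Gsc (chr12:104473187-104473486, minus strand) and Evx1 (chr6:52313248-52313547, plus strand) follow.
Mesp1: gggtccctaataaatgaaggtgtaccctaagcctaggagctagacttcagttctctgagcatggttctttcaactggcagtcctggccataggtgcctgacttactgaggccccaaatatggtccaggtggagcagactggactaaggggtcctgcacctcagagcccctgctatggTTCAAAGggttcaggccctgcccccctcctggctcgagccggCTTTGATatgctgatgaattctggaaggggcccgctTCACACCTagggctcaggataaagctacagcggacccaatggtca
Gsc: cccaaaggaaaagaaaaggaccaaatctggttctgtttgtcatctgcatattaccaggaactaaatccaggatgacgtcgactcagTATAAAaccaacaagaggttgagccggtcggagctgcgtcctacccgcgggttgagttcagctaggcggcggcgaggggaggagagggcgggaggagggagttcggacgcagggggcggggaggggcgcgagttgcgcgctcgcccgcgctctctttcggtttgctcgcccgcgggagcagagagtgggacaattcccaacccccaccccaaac
Evx1: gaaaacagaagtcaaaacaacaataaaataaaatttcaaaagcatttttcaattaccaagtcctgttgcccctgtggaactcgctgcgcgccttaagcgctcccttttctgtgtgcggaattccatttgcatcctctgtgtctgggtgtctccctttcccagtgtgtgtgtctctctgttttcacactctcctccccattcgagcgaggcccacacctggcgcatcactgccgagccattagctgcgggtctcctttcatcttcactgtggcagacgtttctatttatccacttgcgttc

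A TCF word was present in the windows of T, Mesp1 and Wnt3, and in 16.9% of all 32851 windows. In T it began 235 bases upstream of the start, reading on the opposite strand. In Mesp1 there was a pair of them, beginning 73 and 31 bases upstream, and the T-box word, held by 1.28% of all windows, lay just behind the start. The word TATAAA (13.6% of all windows) occurred in Gsc and Tbx6 and in no other window of the 7. T, with transcripts, and Mesp1, with none counted, thus shared the TCF word, and a match of letters shows neither binding nor activity. The windows also differed in CpG content. The ratio of observed to expected CpG was 0.607 in T, 0.934 in Gsc and 0.710 in Evx1 against 0.174 in Mesp1, with a median of 0.384 over all windows.

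Replicate 1 held 23716499 counts and replicate 2 held 20275749, so a gene without counts may still have had a level of 3 counts, which equals 0.126 CPM (counts per 1000000) in the first library and 0.148 CPM in the second. Intervals and these limits come from the counts of 1 library and cover counting error only. Reads carried no molecular identifiers that would tell molecules from PCR copies, so the intervals can be too narrow even for that. T alone among the 8 members reached 10 counts in both libraries, against 12674 of the 22556 genes of the table. Summed over the 8 genes there were 113 counts in replicate 1 and 53 in replicate 2, of which T supplied most of them. In RNA from bulk cells, few cells with much of a transcript and many cells with little of it cannot be told apart. The labels do not say whether the replicates were separate cultures.

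**Figure D1:**
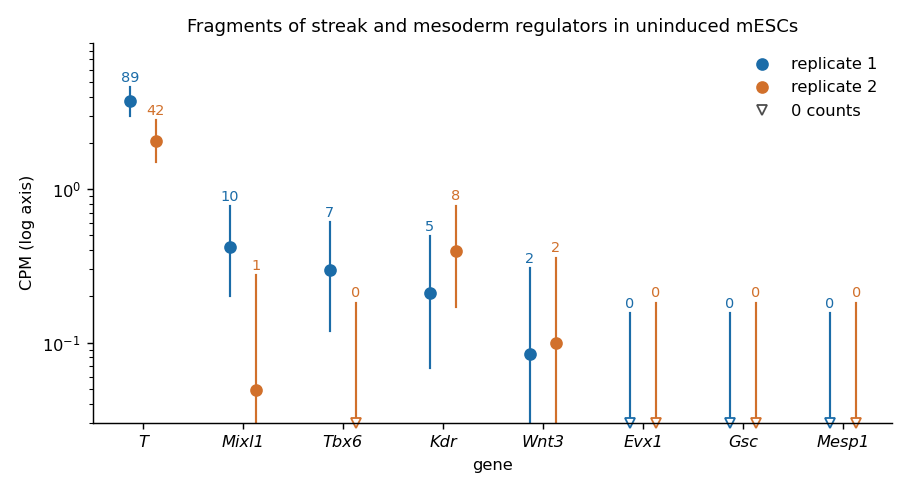
CPM of the 8 genes in replicate 1 (blue) and replicate 2 (orange), on a log axis cut at its lower end. Points are values, bars are 95% Clopper-Pearson intervals, open triangles are libraries with 0 counts and the printed numbers are counts. T, with 89 and 42 counts, stood above all other members in both libraries.

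Wnt3, the ligand whose loss keeps the streak from forming, had 2 counts in each replicate. Its level was 0.0843 CPM in replicate 1 (95% Clopper-Pearson interval 0.0102 to 0.305) and 0.0986 CPM in replicate 2 (0.0119 to 0.356). Both counts lie under the limit of 3, so the gene was not detected above what a count of 0 allows. The locus (chromosome 11, 103774174 to 103818021, plus strand) spans 43848 bp, most of it intron, and a fragment anywhere in that span would have been counted.

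T, which encodes brachyury, the founding T-box factor and the classical marker of the streak and of axial mesoderm, had 89 counts in replicate 1 and 42 in replicate 2. These are 3.75 CPM (3.01 to 4.62) and 2.07 CPM (1.49 to 2.80), and the intervals do not overlap. Per length of its transcribed span (chromosome 17, 8434422 to 8442496, plus strand) the level was 7.43 and 4.60 TPM, a mean of 6.02 ± 2.00 TPM (SD, n = 2). This mean was above that of 64.9% of all genes in the table. Its nearest upstream neighbor on the same strand, T2, ended 11696 bp before it and had 47 and 33 counts, so no fragment of T2 inside its annotated span was counted for T.

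Tbx6, the T-box factor of presomitic mesoderm, had 7 counts in replicate 1 and 0 in replicate 2. In replicate 1 this is 0.295 CPM (0.119 to 0.608). The 0 of replicate 2 allows up to 0.148 CPM by the limit of 3 counts, and its Clopper-Pearson interval reaches 0.182 CPM. The gene therefore stood above the limit in replicate 1 alone. Ypel3 ends 968 bp upstream on the same strand and had 66 and 25 counts, a larger signal next to a small one, and whether transcripts run on from it into Tbx6 was not tested.

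The homeobox genes were lower than T. Mixl1, a factor of nascent mesoderm and endoderm, had 10 counts in replicate 1 and 1 in replicate 2, or 0.422 CPM (0.202 to 0.775) and 0.0493 CPM (0.00125 to 0.275). It thus exceeded the limit of 3 counts in replicate 1 only, like Tbx6. Gsc, the homeobox gene of the organizer, and Evx1, of the posterior streak, had 0 counts in both libraries. Evx1 is overlapped on the opposite strand by 5730457N03Rik, which also had 0 counts in each library. Strand was used in the counting, so reads of one were not assigned to the other, apart from any reads of wrong strand, whose share was not measured.

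Mesp1, the basic helix-loop-helix factor of the first cardiac mesoderm, had 0 counts in both replicates. Its paralog Mesp2, on the same chromosome, had 12 and 10 counts. How firmly a 0 can be read depends on length. For Mesp1, with a span of 1351 bp, the 3 counts that a 0 allows would be 1.97 TPM in replicate 2 and exceed 1 TPM in replicate 1 as well, so a level of 1 TPM could not be told from 0 with span length, whereas with exonic length it could (the limits are given with the exonic levels). For Gsc the same limits are 0.997 and 1.31 TPM, and for the longer Evx1 0.414 and 0.544 TPM.

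Kdr, the VEGF receptor of hemangioblasts and endothelium, was counted 5 times in replicate 1 and 8 times in replicate 2, at 0.211 CPM (0.0685 to 0.492) and 0.395 CPM (0.170 to 0.777). It was the only member besides T that was above 3 counts in both libraries. Because its span is 45160 bp, these counts correspond to 0.0746 and 0.157 TPM. Within the VEGF receptors and neuropilins listed (Kdr, Flt1, Flt4, Nrp1 and Nrp2), Kdr ranked last of 5. With span length its replicate range overlapped those of Flt1 and Nrp1, and with exonic length it did not.

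By mean TPM over the span, the order was T at 6.02, Mixl1 at 0.956 ± 1.04, Tbx6 at 0.580 ± 0.820, Kdr at 0.116 ± 0.0581 and Wnt3 at 0.0356 ± 0.00680 TPM (SD, n = 2), followed by Evx1, Gsc and Mesp1 at 0. Both replicates of T lay above both of Mixl1. T was 4.40 times as high as Mixl1 in replicate 1 (95% Clopper-Pearson counting interval 2.28 to 9.48, span length). In replicate 2 the ratio was 20.7, with an interval of 3.52 to 839, since Mixl1 had 1 count there. Mixl1 and Tbx6 did not differ beyond the spread of their replicates, nor did Tbx6 and Kdr. The replicate ranges of Kdr and Wnt3 did not overlap, although with 2 to 8 counts their intervals did. Wnt3 cannot be ranked above the genes at 0 at this depth.

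Reads of mature mRNA fall in exons, so the levels were also calculated with exonic length. Only the length changed. The counts remained those of the whole span, so fragments in introns are included and raise the levels of genes with long introns most. T then stood at 4.57 ± 1.68 TPM, Mixl1 at 0.324 ± 0.357 and Tbx6 at 0.257 ± 0.363 TPM. Kdr followed at 0.167 ± 0.0782 and Wnt3 at 0.0965 ± 0.0148 TPM (SD, n = 2). The order was the same with both lengths, but T stood further above Mixl1, by 9.98 times in replicate 1 (5.18 to 21.5), where Mixl1 had 10 counts. Mesp1, Gsc and Evx1 are here limited by their 0 counts to at most 0.311, 0.313 and 0.138 TPM in replicate 1 and 0.387, 0.389 and 0.172 TPM in replicate 2.

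**Figure D2:**
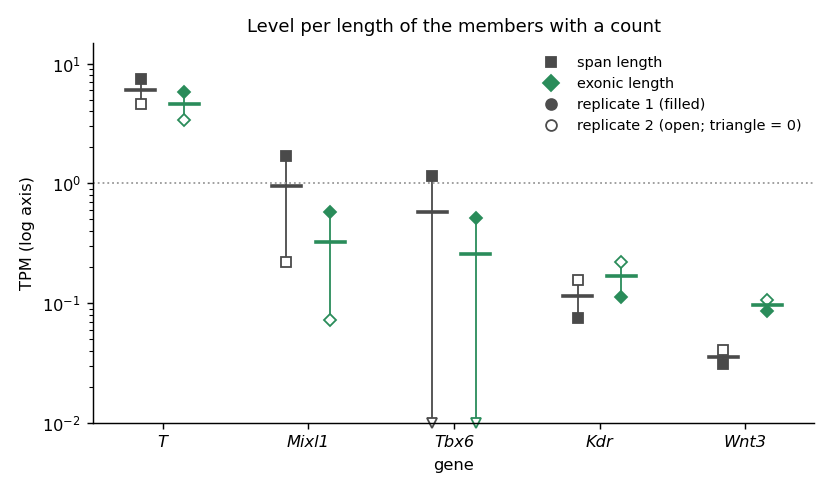
TPM of the 5 genes with any count, on a log axis, with span length (gray squares) and exonic length (green diamonds). Filled symbols are replicate 1, open symbols replicate 2, triangles at the lower edge a value of 0, thick bars the mean, and the dotted line marks 1 TPM. T is the only gene with both replicates above the line, with either length.

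At 1 TPM or more on average, T was the only one of the 8 genes, which is 12.5%, whereas 52.7% of all genes in the table reached it. The median of the 8 genes was 0.0756 TPM and that of all genes 1.35 TPM. A count of 0 in both libraries was found for 3 of the 8 genes and for 21.1% of all genes. In replicate 1 alone, Mixl1 at 1.69 TPM and Tbx6 at 1.16 TPM also passed 1 TPM, and in replicate 2 alone T remained the only one.

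Replicate 1 had the higher values of T, Mixl1 and Tbx6, and replicate 2 the higher values of Kdr and Wnt3, although Wnt3 had 2 counts in each. An exact binomial test was used to ask whether the counts of a gene in the 2 libraries differed beyond sampling, and it compares these libraries, not conditions. Of the 3 members with at least 10 counts in total, T and Mixl1 were lower in replicate 2 and none was higher. Among all 14536 genes tested, 60.8% differed, 45.7% being lower and 15.1% higher in replicate 2, so such a difference was common. T differed by a log2 ratio of −0.85 (95% Clopper-Pearson interval −1.42 to −0.31; adjusted p = 0.00313, exact binomial test with Benjamini-Hochberg adjustment). For Mixl1 the log2 ratio was −2.58 (−8.54 to −0.28; adjusted p = 0.0254, same exact test), with 1.55% of the genes tested having a lower ratio. For Kdr it was 0.85 (−0.89 to 2.86; adjusted p = 0.356, same exact test). Wnt3 and Tbx6 had too few counts for the test.

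The call for T and Mixl1 depended on how the libraries were scaled. With TMM factors, under which 57.8% of all genes tested differed, T kept its call (log2 ratio −0.62, adjusted p = 0.0377, exact binomial test) and Mixl1 lost it (−2.36, adjusted p = 0.0527). With DESeq2 size factors (also 57.8% of all genes) neither passed, at adjusted p values of 0.0820 for T and 0.0575 for Mixl1 in the same exact test. The ratio between the libraries fell with GC content, with a Spearman's rho of −0.64 across 9256 autosomal genes (genes are not independent replicates). The transcript of T has 52.2% GC and that of Mixl1 48.5%, against a median of 47.9% for those genes. After the GC trend was removed the log2 ratio of T was −0.27 (adjusted p = 0.453, exact binomial test) and that of Mixl1 −2.24 (adjusted p = 0.115), while 45.7% of all genes tested still differed. With at least 10 counts demanded in both libraries T alone was tested and passed, against 65.2% of all genes. Without a filter T, Mixl1 and Tbx6 passed, against 48.5% of all genes.

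**Figure D3:**
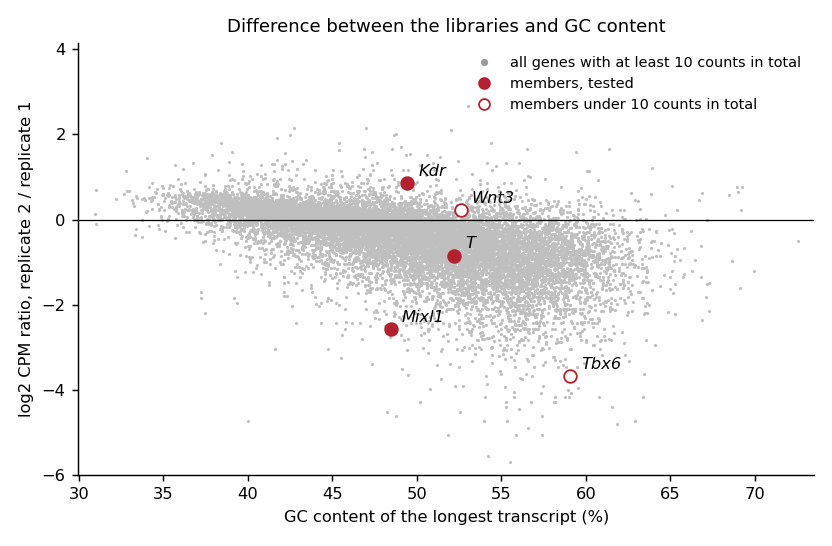
Log2 ratio of CPM in replicate 2 over replicate 1 against the GC content of the longest transcript, for all genes with at least 10 counts in total (gray) and for members with any count (red; open for those under 10 counts). T lies within the gray cloud at its GC content, while Mixl1 and Tbx6 lie near its lower edge and Kdr near its upper edge.

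The T-box family places T and Tbx6 among their relatives. Of 17 family members, T ranked 4 by mean TPM with either length, after Mga at 241 ± 29.6, Tbx3 at 67.1 ± 0.746 and Eomes at 30.3 ± 4.62 TPM (SD, n = 2, span length). Mga encodes a MAX partner of the germline gene repressing PRC1 complex, Tbx3 a factor of naive pluripotency and Eomes a factor of the anterior streak and trophoblast. Eomes, a streak gene itself, was 5.04 times as high as T with span length and 2.74 times with exonic length. Tbx6 ranked 7 of 17 with span length and 10 of 17 with exonic length. Both ranks of Tbx6 rest on replicate 1 alone, since it had no count in replicate 2. The family had 6 genes at 1 TPM or more with span length. Over all genes, 52.7% reached 1 TPM with span length and 55.3% with exonic length. These shares are the background for such counts in this and the next lists.

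Wnt3 was compared with the other Wnt ligands in the same way. Among 19 ligands, 1 reached 1 TPM with span length, Wnt16 at 3.67 ± 1.49 TPM (SD, n = 2), with 40 and 55 counts. Wnt8a, which is also active in the streak, followed with 8 and 2 counts, and Wnt9a with 13 and 6. With exonic length 2 ligands reached 1 TPM, Wnt5b (named after its values were seen) at 2.06 TPM and Wnt16 at 1.65 TPM. Wnt5b had 43 and 32 counts and was at 0.256 TPM with span length. Wnt3 ranked 13 with span length and 10 with exonic length. Its close relative Wnt3a, named here after its values were seen, had 1 and 0 counts.

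Genes that act beside the members in streak formation were taken from lists of signals, transcription factors and antagonists. Of 12 inducing signals and receptors, 9 were at 1 TPM or more, against 52.7% of all genes. The highest were Tdgf1, the Nodal coreceptor, at 3501 ± 165 TPM, Fgf4 at 846 ± 235 TPM and the BMP receptor gene Bmpr1a at 51.2 ± 8.56 TPM (SD, n = 2, span length). Nodal had 188 and 109 counts and Bmp4 114 and 75, whereas Fgf8, a ligand of the streak itself, had 7 and 1 (these were named after their values were seen). In the exact binomial test, 6 of the 10 genes tested were lower in replicate 2 and 2 were higher. The shares over all genes tested, 45.7% lower and 15.1% higher, are the background for this and the next lists.

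Other transcription factors of the streak and early mesoderm were mostly below 1 TPM. Of 18, 3 reached 1 TPM with span length: Eomes, Mesp2 at 3.13 ± 0.199 TPM and Lef1, a TCF family effector, at 2.52 ± 0.140 TPM (SD, n = 2). With exonic length 3 reached it as well, Lef1 at 15.6, Eomes at 12.5 and Gata4 (named after its values were seen) at 1.46 TPM, while Mesp2 stood at 0.832 TPM. No count in either library was found for 6 of the 18. Their median was 0.260 TPM with span length and 0.0727 TPM with exonic length, where the medians of the 8 members were 0.0756 and 0.132 TPM, so the order of both groups turned with the length used. In the exact binomial test, 1 of the 5 genes tested, Eomes, was lower in replicate 2.

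Among 10 antagonists, 6 were at 1 TPM or more, a share near the 52.7% of all genes. Lefty2 stood at 2120 ± 365, Lefty1 at 97.6 ± 57.6 and Sfrp1 at 31.0 ± 4.25 TPM (SD, n = 2, span length). The Lefty genes encode Nodal inhibitors that are themselves targets of Nodal, and Sfrp1 binds Wnt ligands. Lefty1 had 690 and 216 counts, a log2 ratio of −1.45, and Lefty2 had 16529 and 16084, a log2 ratio of 0.19. In the exact binomial test 2 of the 7 tested were lower and 1 was higher in replicate 2.

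Kdr was also set beside the VEGF family and markers of the cells it marks. Vegfa, its principal ligand, stood at 28.6 ± 1.71 TPM, Vegfb, a ligand of Flt1, at 18.8 ± 12.8 TPM and the coreceptor gene Nrp2 at 12.1 ± 1.63 TPM (SD, n = 2, span length). Vegfc, whose product also binds the Kdr receptor (named after its values were seen), had 441 and 410 counts. It stood at 3.03 TPM with span length and at 25.7 TPM with exonic length. With exonic length Nrp2 was at 25.8, Vegfa at 23.9 and Vegfb at 14.7 TPM. Of 12 blood and endothelial markers, 5 were at 1 TPM or more, led by Pecam1 at 8.80 ± 5.42, Tek at 3.69 ± 0.000275 and Gata2 at 2.77 ± 0.271 TPM (span length). With exonic length Pecam1 stood at 25.1 and Tek at 20.4 TPM, and Cd34 at 4.54 and Lmo2 at 3.34 TPM (both named after their values were seen) lay above Gata2. The endothelial cadherin gene Cdh5 was at 0 in both libraries (named after its values were seen). The summed level of the list was 91.1 CPM in the first library against 52.4 CPM in the second, and Pecam1, with 1144 and 343 counts, carried most of that difference. Without it the sums were 42.8 and 35.5 CPM, and 1 of the 7 other genes tested was lower in replicate 2.

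Markers of other cells show what else the libraries held. The ES cell list had a median of 93.4 TPM, with Tdgf1, Nanog at 1264 ± 8.88 TPM and Dppa5a at 972 ± 1049 TPM (SD, n = 2, span length) at its head. Dppa5a owed its place to replicate 1, with 1713 TPM there and 230 TPM in replicate 2. By the exact binomial test 12 of the 15 ES cell markers were lower in replicate 2 and 1 was higher, against 45.7% and 15.1% of all genes tested. The split depended on scaling, with 8 lower and 4 higher under TMM factors, and 6 lower and 5 higher both under DESeq2 size factors and with the GC trend removed. Pou5f1, named after its values were seen, was among the lower ones with 1129 and 142 counts. The summed level of the list was 3964 CPM in replicate 1 and 3140 CPM in replicate 2, and what part such a difference had in the values of T and Mixl1 was not tested. Nanog was 210-fold above T with span length and 169-fold with exonic length. Of 9 formative and primed epiblast markers 7 reached 1 TPM, with Otx2 at 253 ± 2.23, Zic2 at 183 ± 47.6 and Dnmt3b at 41.0 ± 0.778 TPM. Of 10 endoderm markers 2 reached 1 TPM, Dab2 at 2.36 ± 0.0167 and Sox17 at 1.49 ± 0.621 TPM, followed by Gata6 at 0.721 ± 0.0745 TPM (span length). With exonic length 3 reached it, Dab2 at 12.2, Gata4 (named after its values were seen) at 1.46 and Gata6 at 1.41 TPM, while Sox17 stood at 0.443 TPM.

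Feeder fibroblasts would bring mesenchymal transcripts. Of 13 fibroblast markers, Thy1 alone reached 1 TPM on average, with 32 and 2 counts. In replicate 2 it stood at 0.341 TPM, and no marker reached 1 TPM there. Col1a1 and Pdgfrb followed at 0.228 ± 0.0784 and 0.146 ± 0.0806 TPM (SD, n = 2, span length). The summed level of these 13 genes was 2.78 CPM in the first library against 1.13 CPM in the second, and Thy1 carried most of this difference. Without Thy1 the sums were 1.43 and 1.04 CPM. By CPM 7 of the 13 genes were higher in replicate 1 and 5 in replicate 2. Of the collagen genes on the list, Col1a1 had 4 and 5 counts, Col1a2 had 9 and 4 and Col3a1 had 0 and 1, Pdgfrb had 12 and 4, and Lum was the only gene of the list at 0 in both libraries (Col1a2, Col3a1 and Lum were named after their values were seen). Any part of these cells in the values of T, Mixl1 and Tbx6 was not tested.

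**Figure D4:**
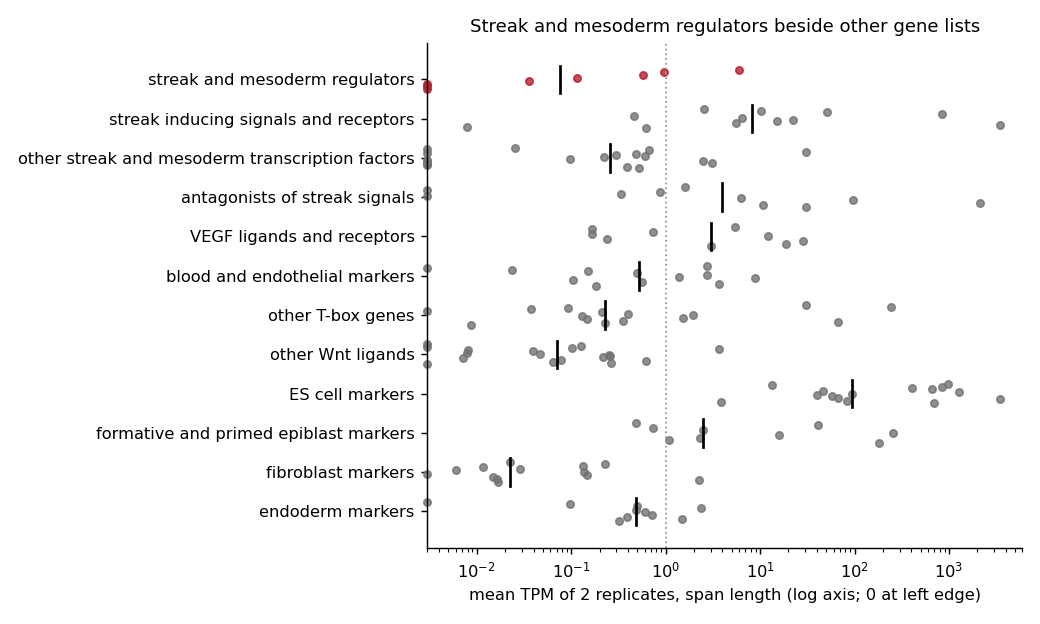
Mean TPM of both replicates with span length, on a log axis, for the 8 streak and mesoderm regulators (red) and the genes of each other list (gray, members left out). Each point is a gene, the black bar is the median of the list, genes at 0 are drawn at the left edge and the dotted line marks 1 TPM. The regulators and the other transcription factors of the streak lie mostly left of the line, while most of the inducing signals and all ES cell markers lie right of it.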

How the data were processed

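Libraries of polyadenylated RNA from 2 replicates of 1 group were analyzed. The authors deposited raw fragment counts per gene, made in reverse-stranded paired mode, per the file headers with featureCounts 1.5.2, over whole transcript spans on mm10, introns included. Bowtie2 2.3.2 and STAR 2.4.2a are named in the submitters' processing notes, and the alignment settings of these libraries are not given in the sources used here. Count columns were matched to samples by name, apart from a letter b that only the descriptions carry.

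TPM was computed from the counts with the deposited span length, and averaged over replicates as the study did. Exonic length (union of exons) and GC content (longest transcript) came from GENCODE M21 and were matched by symbol or synonym for 22225 genes. With no transcript of another gene did a member share a word of 50 bases, except Evx1 with its antisense RNA (0.919% of words). No member overlapped a gene on its own strand. The 2 counts of each gene with at least 10 in total were compared by a two-sided exact binomial test against the ratio of totals, with Benjamini-Hochberg adjustment at 0.05. It was run first on simulated libraries with few changed genes, counting error only and a known ratio between libraries. That run does not show how the test behaves with a GC trend or with differences as common as here. For log2 ratios 0.5 was added to each count before scaling, while their intervals came from the counts without this addition. The GC trend was removed with a degree 3 polynomial of the log2 ratio on GC, from autosomal genes of 50 or more counts per library. Alternatives used TMM (edgeR 4.0.16) and DESeq2 1.42.0 size factors (R 4.3.3).

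Members and lists were chosen with earlier results of these data known. Genes named are the members, the 3 genes of each other list with the highest mean TPM and the neighbors of members. A few others are marked in the text as named after their values were seen. Replicate values, with n = 2, measure only the spread between these libraries.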

Additional observations from a re-analysis of the deposited data

How the results depend on the processing

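Of 143 alternatives over 30 results, 38 moved the value and 5 lost significance. The 20 alternatives to a log2 ratio of a member reversed none. Scaling by TMM or DESeq2 factors and removal of the GC trend raised every such ratio. Those of Kdr and Wnt3, already positive, had no room to reverse there. The scalings of the ES cell marker counts were added after the data were seen. T stayed the only member at 1 TPM or more with exonic length, with CPM and with a minimum of 5 TPM. At 0.1 TPM there were 4, and across the fits that leave out one replicate there were 1 to 3, the 3 being T, Mixl1 and Tbx6 in replicate 1 alone. Of the other listed genes, 54 reached 1 TPM and 96 reached 0.1 TPM. With at least 4 counts in each replicate 2 members passed, and with at least 50 none did (0). The shares of all genes at 0.1 TPM and at these count limits are not given here. These numbers thus describe the depth of the members only. Members whose counts differed between the libraries numbered 2 (60.8% of all genes differed), or 3 with Tbx6 when no filter was set (48.5%), but 1 with TMM factors (57.8%), 1 with at least 10 counts in each library (65.2%), 0 with DESeq2 size factors (57.8%) and 0 once the GC trend set the expected ratio (45.7%, added after the data were seen). With DESeq2 size factors the log2 ratio was −0.54 for T and −2.27 for Mixl1, with TMM it was −2.36 for Mixl1, and with the GC trend removed −0.27 for T and −2.24 for Mixl1, and none of these passed the threshold. The cause was not tested. CPM, which ignores length, gave 2.91 for T, 0.303 for Kdr, 0.235 for Mixl1, 0.148 for Tbx6 and 0.0915 for Wnt3, so Kdr, the gene with the longest span, then stood above Mixl1 and Tbx6, and exonic length moved Wnt3 to 0.0965 TPM. At counts of 0 to 10, depth limits all members but T. No paired analysis was possible because only 1 group exists.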
